A study of Mus musculus with 6 samples.

Results

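A set of 10 genes that mark adipose progenitors and stromal fibroblasts were followed through FGF8 treatment and brown fat differentiation: Pdgfra, Pdgfrb, Dlk1, Ly6a, Cd34, Dpp4, Pi16, Clec3b, Thy1 and Cd24a. They are 10 of the 26264 gene symbols in the count files, and each had a row in the files of all 6 libraries, with Dpp4 at 0 counts in 3 of them. The set was chosen by name after its values were known, and the difference between FGF8-treated and untreated cells at day 0 was used in that choice, Clec3b having shown the largest difference. The day 0 effect of FGF8 is therefore given below as a description, with no test.

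The libraries are bulk RNA sequencing of immortalized brown preadipocytes, from wild-type mice of the Bl6N strain, and of the adipocytes made from them. The preadipocytes had been grown out of the stromal vascular fraction, the non-adipocyte cells left after digestion of interscapular brown fat, and immortalized with a retrovirus carrying the SV40 large T antigen. Cultures received 5.5 nM FGF8, a paracrine fibroblast growth factor, for 48 h, while the controls received no FGF8 (untreated in the labels, vehicle in the methods). Each treatment gave 1 library directly after the 48 h (day 0), 1 at day 3 and 1 at day 9. In both treatments, day 3 followed 2 days of induction medium (insulin, T3, IBMX, dexamethasone, indomethacin and rosiglitazone) and 1 day of differentiation medium (insulin, T3 and rosiglitazone), without further FGF8. Day 9 followed the same induction and 7 days of differentiation medium, for which the labels write D7. The growth text of the labels speaks of primary white preadipocytes, against the titles and the series design, whose wording was followed. All values come from 1 immortalized culture system, so the cells carry the large T antigen in every group. With 1 library per condition there is no replicate check on any single day, and no source says whether the libraries came from separate cultures.

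The files held between 16403254 and 38551551 counts per library. Markers of other cell types were checked first, since several of the 10 genes also mark such cells. Of 8 leukocyte markers, Adgre1 and C1qa had 0 counts in the 6 libraries and Ptprc had 0 in 5 of them, and the summed level of the list lay between 61.5 and 156 normalized counts. The endothelial sum was 1912 normalized counts in untreated cells at day 0, 1288 of them from Kdr, and between 190.2 and 472.4 in the other 5 libraries, with Cdh5, Cldn5 and Emcn at no more than 10.3. All 6 fibroblast and preadipocyte markers were above 3 counts in each library.

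Brown adipocytes arise from resident mesenchymal progenitors in the stroma of the depot, which carry the receptor PDGFRA. In mouse fat, cells positive for DPP4, PI16 and CD55 are an interstitial progenitor pool that gives rise to committed preadipocytes marked by ICAM1, and SCA-1 (Ly6a), CD34, CD24 and THY1 are the antigens by which such cells are sorted. DLK1 is a preadipocyte protein that is lost as fat cells mature, and these surface markers are in general lower in adipocytes than in the cells they come from.

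The DNA upstream of 5 of the genes is shown because of their day 0 values with FGF8: Clec3b, Dpp4 and Ly6a were the furthest below the untreated level, and Pi16 and Thy1 were the only members above it. Each line gives the 250 bases before the canonical transcription start of the GENCODE M39 annotation, read 5′ to 3′ on the strand of the gene from the GRCm39 genome. The stretches lie at chr9:122979675-122979924 (Clec3b, plus strand), chr2:62242576-62242825 (Dpp4, minus strand), chr15:74869484-74869733 (Ly6a, minus strand), chr17:29536404-29536653 (Pi16, plus strand) and chr9:43954282-43954531 (Thy1, plus strand). Capitals mark a match to one of the 6 motifs named after the lines.
Clec3b: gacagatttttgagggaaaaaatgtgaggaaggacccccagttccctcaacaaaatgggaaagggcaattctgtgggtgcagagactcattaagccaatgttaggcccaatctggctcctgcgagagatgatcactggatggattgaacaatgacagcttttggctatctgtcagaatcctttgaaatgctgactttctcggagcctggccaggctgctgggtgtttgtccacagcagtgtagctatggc
Dpp4: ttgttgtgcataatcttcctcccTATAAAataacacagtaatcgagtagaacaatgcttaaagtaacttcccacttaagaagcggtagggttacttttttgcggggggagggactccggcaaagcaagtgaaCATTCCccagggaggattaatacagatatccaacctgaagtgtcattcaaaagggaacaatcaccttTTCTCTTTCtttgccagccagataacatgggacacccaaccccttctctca
Ly6a: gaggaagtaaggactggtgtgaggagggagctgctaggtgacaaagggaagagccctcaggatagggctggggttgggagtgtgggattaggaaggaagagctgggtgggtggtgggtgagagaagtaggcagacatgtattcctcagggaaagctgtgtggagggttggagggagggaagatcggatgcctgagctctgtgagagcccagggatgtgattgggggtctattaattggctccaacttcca
Pi16: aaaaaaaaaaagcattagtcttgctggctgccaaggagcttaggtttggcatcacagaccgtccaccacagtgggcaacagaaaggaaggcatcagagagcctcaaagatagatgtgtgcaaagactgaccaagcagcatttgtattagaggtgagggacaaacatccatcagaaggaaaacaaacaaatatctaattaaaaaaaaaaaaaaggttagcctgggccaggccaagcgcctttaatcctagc
Thy1: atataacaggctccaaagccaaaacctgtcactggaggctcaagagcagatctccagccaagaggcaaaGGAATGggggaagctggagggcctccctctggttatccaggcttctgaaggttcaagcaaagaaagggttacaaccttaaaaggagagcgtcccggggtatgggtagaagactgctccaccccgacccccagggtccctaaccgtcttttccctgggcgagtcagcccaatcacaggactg

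Motifs were sought on both strands between 250 bases before and 50 bases after the start of 19091 protein-coding genes. AP-1 and ETS factors, which act downstream of ERK and so of FGF receptors, were represented by TGANTCA, found in 6.89% of all these promoters, and CCGGAAG, found in 11.1%. Among the 10 genes, Pdgfra held the AP-1 letters and Dlk1 held the ETS letters. The TEAD motif GGAATG was present in 13.9% of promoters and in those of Dpp4 and Thy1, and the C/EBP motif TTGCNNAA was present in 10.3% and in that of Pdgfra. The interferon response element GAAANNGAA was present in 8.4% of promoters and in those of Pdgfrb and Dpp4. The letters of the TATA box, TATAAA, were present in 11.8% and in that of Dpp4, at position -227 from the start. None of the 6 motifs was in the windows of Clec3b, Ly6a and Pi16. Such matches are a description of letters. They locate no binding.

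The untreated preadipocytes had the 10 markers at very different levels. Per kilobase of exon, Ly6a (6165 normalized counts) and Pdgfra (5545) formed the top tier at day 0. Dlk1 (1560), Cd34 (1261), Pdgfrb (1078), Clec3b (832) and Thy1 (619) formed a middle tier, and Dpp4 and Cd24a (18.2 each) and Pi16 (10.8) were far below it. Neighbours within a tier were not ordered further, because ranks moved with the length used: for levels averaged over the 6 libraries, 3 of the 10 genes kept their rank when the longest transcript replaced the exon length. In the FGF8 library of day 0 the order was different. Per kilobase, Thy1 (988 normalized counts), Cd34 (876), Pdgfra (786) and Dlk1 (709) led, Pdgfrb (409) and Ly6a (326) followed, Pi16 was at 85.1 and Clec3b at 0.8. This is a description only, since the day 0 contrast was used in choosing the set. At day 9 Ly6a (2655 per kilobase), Clec3b (1212) and Pdgfra (1060) were the highest of the set in untreated cells, and Ly6a (327) and Pdgfra (297) in FGF8-pretreated cells.

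**Figure D1:**
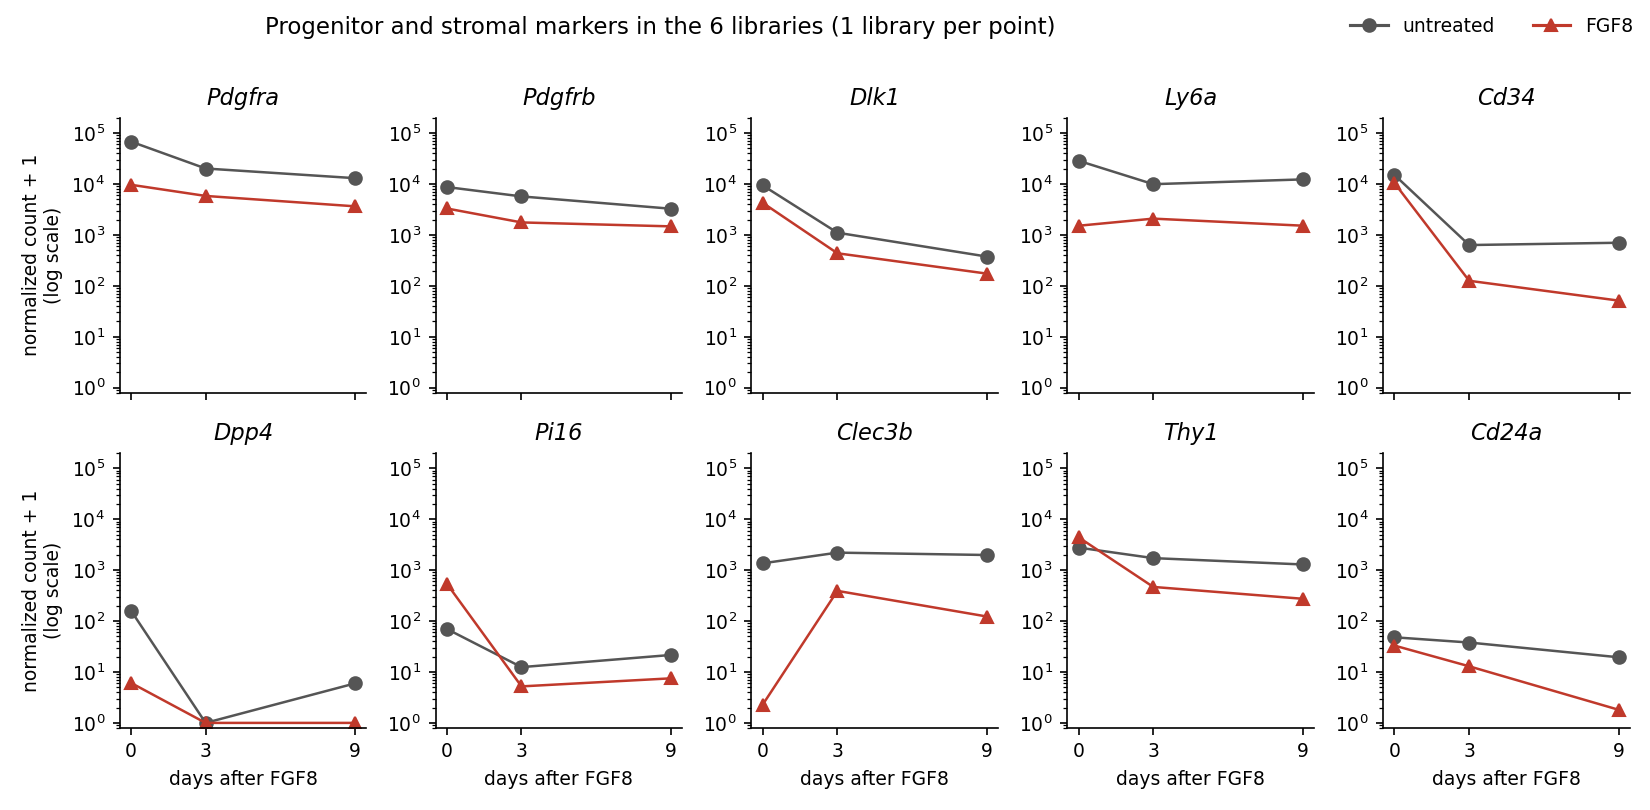
Level of each of the 10 markers as normalized count + 1 on a log scale (vertical) against days after FGF8 (horizontal), with 1 library per point; grey circles are untreated and red triangles FGF8-pretreated cells. The FGF8 points lie below the untreated points at day 9 for all 10 genes, and above them at day 0 for Pi16 and Thy1.

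At days 3 and 9, FGF8-treated cells had less of most of these markers than untreated cells. Counting only members that averaged 20 or more normalized counts over the libraries compared, 6 of 10 were at least 2-fold lower with FGF8 at day 0, where 10.8% of all genes were, and 1 (Pi16) was at least 2-fold higher, where 7.27% were; the day 0 counts belong to the contrast used in choosing the set, and nothing is read from them. At day 3 all 8 such members were at least 2-fold lower (12.1% of all genes) and 0 were higher (3.8%). At day 9 all 7 were lower (8.74%) and 0 were higher (1.12%). The median log2 fold change of these members on the 3 days was -1.27, -1.83 and -2.24, against 0.054, 0.081 and 0.083 over all genes. The days were not compared by a test.

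The effect of FGF8 shared by days 3 and 9 uses none of the day 0 libraries and was tested across all genes. The members were named with earlier results of these data known, so their count of calls is not free of that choice. With the day as a block in edgeR's quasi-likelihood test (Benjamini-Hochberg adjusted p under 0.05), 8 of the 9 members tested fell and 0 rose, where 11.6% of 14367 genes fell and 3.96% rose. Pi16 missed the threshold, and Dpp4 had too few counts to be tested in this fit. The 2 days stand in for replicates in this fit, which leaves 1 residual degree of freedom, and without the day block 0 genes and 0 members were called (1387 genes and 6 members at an unadjusted p under 0.05). In bulk RNA, fewer cells of a type and less RNA per cell cannot be told apart. The summed level of 8 adipocyte markers was 216311 normalized counts untreated and 429656 with FGF8 at day 3, and 485315 and 565650 at day 9. Most of each sum came from Fabp4, with 162482 and 334151 at day 3, and 309617 and 353330 at day 9. All 8 markers were above 3 counts in these 4 libraries. By the 2-fold rule, 3 of 7 were higher with FGF8 at day 3 (3.8% of all genes) and 0 were lower. Besides Fabp4 these were Cidea (33.1 normalized counts untreated against 416) and Ucp1 (319 against 4287). At day 9, 0 of 8 were higher and 1 was lower, Lep, with 104 against 13.8. In the edgeR test over days 3 and 9, 0 of the 8 passed, and their part in the lower progenitor markers was not tested.

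**Figure D2:**
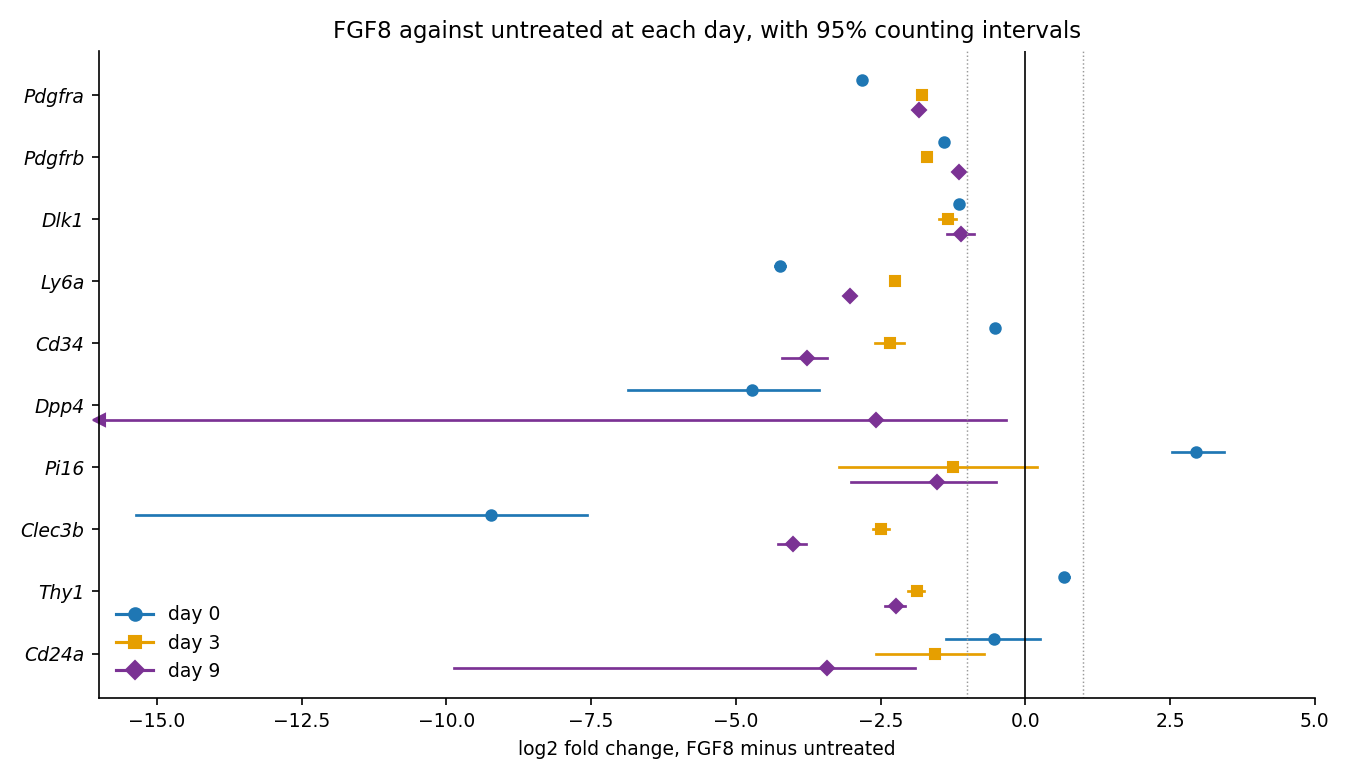
Log2 fold change of FGF8 against untreated cells (horizontal) for each marker (vertical) at day 0 (blue circles), day 3 (orange squares) and day 9 (purple diamonds), with bars for the 95% counting interval, an arrow where the interval has no lower end and dotted lines at 2-fold. Values at days 3 and 9 lie left of 0 for each plotted gene, from -1.11 for Dlk1 to -4.01 for Clec3b, and Pi16 (2.95) and Thy1 (0.67) lie right of it at day 0.

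The first group comprises the PDGF receptors, receptor tyrosine kinases of mesenchymal cells. Pdgfra (chr5:75311994-75358876, plus strand, GRCm39) encodes the receptor that defines fibroblasts and adipose progenitors. It held 68260.9, 20193 and 13042.4 normalized counts in untreated cells at days 0, 3 and 9, and 9679.8, 5840.1 and 3651 in FGF8-treated cells on the same days. The highest FGF8 value was below the lowest untreated value. Its exons overlap those of the microRNA gene Mir7025 on the same strand. The log2 fold changes of Pdgfra with FGF8 on the 3 days were -2.82 (95% counting interval -2.85 to -2.78), -1.79 (-1.83 to -1.75) and -1.84 (-1.88 to -1.79). Over days 3 and 9 it fell by 1.84 ± 0.192 (SE) on the log2 scale (edgeR's quasi-likelihood test, Benjamini-Hochberg adjusted p = 0.0012; 8.58e-17 to 0.367 over the alternatives).

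Pdgfrb, the receptor of pericytes and stromal fibroblasts, lies on chromosome 18. It held 8730.9, 5714.5 and 3274.4 normalized counts in untreated cells at days 0, 3 and 9, and 3314.5, 1761.2 and 1473.9 with FGF8. The groups overlapped, since untreated cells at day 9 had as little as FGF8-treated cells at day 0. At matched days Pdgfrb was lower with FGF8 by -1.40 (-1.46 to -1.33), -1.70 (-1.77 to -1.63) and -1.15 (-1.23 to -1.07) on the log2 scale. It fell by 1.45 ± 0.185 (SE) over days 3 and 9 (edgeR's quasi-likelihood test, Benjamini-Hochberg adjusted p = 0.00231; 2.37e-08 to 0.37 over the alternatives). Of 7 pericyte and mural cell markers, Higd1b had 0 counts in all 6 libraries, and the summed level was 3649 and 3704 normalized counts untreated and 3654 and 3836 with FGF8 at days 3 and 9. The markers in this sum went both ways. Over days 3 and 9, 1 of 4 tested fell and 0 rose, where 11.6% and 3.96% of all genes did. This was Notch3, with 1773 and 1376 normalized counts untreated against 865 and 862 with FGF8. Not called were Cspg4 (1107 and 1919 against 1841 and 2239), Mcam (737 and 393 against 922 and 726) and Rgs5 (30.5 and 16.3 against 25.3 and 9.8). The part of mural cell RNA in Pdgfrb was not tested.

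Ly6a (chr15:74863840-74869880, minus strand) encodes SCA-1, a GPI-anchored antigen of stem and progenitor cells that interferon also induces. Untreated cells held 28641.3, 9937.4 and 12334.7 normalized counts at days 0, 3 and 9, and FGF8-treated cells 1515.8, 2091.8 and 1520.2. Every untreated library was above every FGF8 library. Ly6a was 18.9-fold lower with FGF8 at day 0 (log2 fold change -4.24, interval -4.33 to -4.16), 4.75-fold lower at day 3 (-2.25, -2.31 to -2.19) and 8.11-fold lower at day 9 (-3.02, -3.09 to -2.95). Over days 3 and 9 it fell by 2.66 ± 0.219 (SE) (edgeR's quasi-likelihood test, Benjamini-Hochberg adjusted p = 0.000728; 8.49e-25 to 0.336 over the alternatives). The Ly6 genes lie in a cluster of similar copies, and how reads with several matches were counted is not given in the sources used here.

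Thy1 (chr9:43954332-43959880, plus strand), which encodes the GPI-anchored fibroblast antigen CD90, behaved differently at day 0. It held 2773.2, 1722 and 1292.6 normalized counts in untreated cells at days 0, 3 and 9, and 4427, 467.5 and 273.2 with FGF8. The FGF8 library was thus the highest of the 6 at day 0 and the lowest of its pair at days 3 and 9. Thy1 was 1.6-fold higher with FGF8 at day 0 (log2 fold change 0.67, interval 0.59 to 0.76), 3.68-fold lower at day 3 (-1.88, -2.02 to -1.75) and 4.73-fold lower at day 9 (-2.24, -2.41 to -2.07). Over days 3 and 9 Thy1 fell by 2.09 ± 0.161 (SE) (edgeR's quasi-likelihood test, Benjamini-Hochberg adjusted p = 0.000728; 1.17e-14 to 0.36 over the alternatives). Whether the effect at day 0 differed from that at the later days was not tested, because the day 0 contrast was used in choosing the set.

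Cd34 (chr1:194621029-194647172, plus strand) encodes a sialomucin of haematopoietic, endothelial and mesenchymal progenitors. Untreated cells held 15083.7, 632.5 and 702 normalized counts on the 3 days, and FGF8-treated cells 10476, 124.9 and 50.4. Both treatments were high at day 0 only, and the FGF8 libraries were the lower ones on each day. Cd34 was 1.44-fold lower with FGF8 at day 0 (log2 fold change -0.53, interval -0.57 to -0.48), 5.06-fold lower at day 3 (-2.33, -2.60 to -2.09) and 13.9-fold lower at day 9 (-3.77, -4.19 to -3.43). Over days 3 and 9 it fell by 3.05 ± 0.338 (SE) (edgeR's quasi-likelihood test, Benjamini-Hochberg adjusted p = 0.00147; 1.02e-14 to 0.363 over the alternatives). Its exons overlap those of Gm16897 on the opposite strand, and the strand setting of the counting is not given in the sources used here. Of 8 endothelial markers 4 could be tested over days 3 and 9, and 2 of these fell and 0 rose, where 11.6% and 3.96% of all genes did. These were Kdr, with 132.4 and 27 normalized counts untreated against 19.7 and 0.8 with FGF8 at days 3 and 9, and Tek, with 64.9 and 160 against 9.8 and 25.2. Pecam1, on 6 to 17 counts at these days, was not called. Egfl7, the most abundant of the list in the FGF8 libraries, held 163 and 154 against 175 and 153 and was not called, and Cdh5, Cldn5 and Emcn were near 0; the part of endothelial RNA in Cd34 was not tested.

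Dlk1 (chr12:109418749-109429262, plus strand) encodes preadipocyte factor 1, a transmembrane relative of Notch ligands that restrains adipogenesis. It held 9413.9, 1107.3 and 375.5 normalized counts in untreated cells at days 0, 3 and 9, and 4279.8, 435.9 and 173.2 with FGF8. Time separated these libraries more widely than treatment did, day 0 being highest in both. The FGF8 difference was nearly alike at the 3 days, with log2 fold changes of -1.14 (-1.20 to -1.08), -1.34 (-1.50 to -1.19) and -1.11 (-1.35 to -0.88). Dlk1 fell by 1.26 ± 0.187 (SE) over days 3 and 9 (edgeR's quasi-likelihood test, Benjamini-Hochberg adjusted p = 0.00451; 1.29e-05 to 0.617 over the alternatives).

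The interstitial progenitor markers Dpp4, Pi16 and Clec3b came next, of which Dpp4 and Pi16 were scarce. Clec3b (chr9:122979925-122987055, plus strand) encodes tetranectin, a secreted plasminogen-binding lectin. Untreated cells held 1361.6, 2208.2 and 1983.3 normalized counts at days 0, 3 and 9. FGF8-treated cells held 1.3 at day 0, a single count, and 391 and 121.9 at days 3 and 9. The untreated libraries were thus all above the FGF8 libraries, and the gene that was near 0 at day 0 was counted again at days 3 and 9. By then FGF8 had been removed and differentiation induced, and their parts in this cannot be told apart. At day 0 the ratio was 1064-fold, with a counting interval of 190 to 42054 because it rests on 1 count. At day 3 Clec3b was 5.65-fold lower with FGF8 (log2 fold change -2.49, interval -2.64 to -2.36) and at day 9 it was 16.3-fold lower (-4.01, -4.27 to -3.79). It fell by 3.25 ± 0.319 (SE) over days 3 and 9 (edgeR's quasi-likelihood test, Benjamini-Hochberg adjusted p = 0.00105; 9.18e-18 to 0.363 over the alternatives).

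Dpp4 (chr2:62159798-62242576, minus strand) encodes dipeptidyl peptidase 4, the CD26 antigen. Its counts were 109, 0 and 7 in untreated cells at days 0, 3 and 9 and 4, 0 and 0 with FGF8, or 160.1, 0 and 5 against 5.1, 0 and 0 normalized counts. Only the untreated day 0 library held more than 7 counts. Dpp4 was 31.3-fold lower with FGF8 at day 0 (interval 11.9 to 117) and at least 2.04-fold lower at day 9, taking the floor of 3 counts for the library at 0. At day 3 both libraries were at 0 and no fold was formed.

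Pi16 (chr17:29536654-29549567, plus strand), which encodes a membrane-anchored protein of the CAP family, was the exception at day 0. It held 69, 11.5 and 20.6 normalized counts in untreated cells at days 0, 3 and 9, and 541.5, 4.2 and 6.5 with FGF8. The FGF8 day 0 library stood above the other 5. Pi16 was 7.84-fold higher with FGF8 at day 0 (log2 fold change 2.95, interval 2.53 to 3.44), and the log2 differences at days 3 and 9 were -1.26 (-3.22 to 0.21) and -1.52 (-3.00 to -0.50) on at most 29 counts. Over days 3 and 9 the log2 difference of -1.57 ± 0.517 (SE) did not pass (edgeR's quasi-likelihood test, Benjamini-Hochberg adjusted p = 0.0798; 0.0501 to 0.519 over the alternatives).

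Cd24a (chr10:43454280-43460264, plus strand) encodes the GPI-anchored antigen that marks an early adipocyte progenitor in white fat. It held 47, 36.9 and 18.5 normalized counts in untreated cells at days 0, 3 and 9, and 32, 11.9 and 0.8 with FGF8. The gene was scarce in all 6 libraries, on 1 to 32 counts. The log2 differences were -0.54 (-1.37 to 0.25) at day 0 and -1.55 (-2.58 to -0.72) at day 3, and at day 9 the ratio was 22.7-fold (3.73 to 931) on 1 count with FGF8. Cd24a fell by 2.34 ± 0.61 (SE) over days 3 and 9 (edgeR's quasi-likelihood test, Benjamini-Hochberg adjusted p = 0.0391; 0.00851 to 0.617 over the alternatives), a call that was lost with DESeq2's size factors in edgeR (adjusted p = 0.0732) and with DESeq2's Wald test (adjusted p = 0.0867). Its exons overlap those of Mtres1 on the opposite strand.

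Most of the markers were lower after differentiation in both treatments. In untreated cells 6 of the 10 were at least 2-fold lower at day 3 than at day 0, where 15.5% of all genes were, and 0 were higher (19.5%). At day 9 these counts were 9 of 10 lower (19.5%) and 0 higher (23.7%). With FGF8, 5 of 9 were lower at day 3 than at day 0 (22% of all genes) and 1, Clec3b, was higher (24.1%), and at day 9 6 of 8 were lower (22.6%) and Clec3b was again higher (26.1%). The change shared by the treatments was tested over the 6 libraries with treatment as a block and 2 residual degrees of freedom, the untreated and FGF8 libraries of a day standing in for replicates. From day 0 to day 3, 5 of the 9 members tested fell (Pdgfra, Pdgfrb, Dlk1, Cd34 and Pi16) and 0 rose, where 19.8% of 14569 genes fell and 26.2% rose. From day 0 to day 9, 6 fell, these 5 and Thy1, and 0 rose, where 24.8% of genes fell and 29.2% rose. From day 3 to day 9, 0 members were called (2 at an unadjusted p under 0.05), where 0.00686% of genes fell and 0.0618% rose in edgeR's test. That count rests on the libraries used: with only the 4 libraries of days 3 and 9, 3 members and 1465 genes fell and 1578 genes rose, and DESeq2's Wald test called 1 member. The comparisons of days 3 and 9 with day 0 share the day 0 libraries, so they are not independent of each other. Those libraries also gave the FGF8 contrast that was used in choosing the set. The calls against day 0 are therefore not free of that choice, above all for Thy1 and Pi16, which were higher with FGF8 at day 0.

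Dlk1 and Cd34, both abundant at day 0, had large falls in both treatments. Dlk1 was 25.1-fold lower at day 9 than at day 0 in untreated cells (log2 fold change -4.64, counting interval -4.78 to -4.52) and 24.7-fold lower with FGF8 (-4.62, -4.83 to -4.43), values whose intervals overlap. It fell by 4.6 ± 0.181 (SE) from day 0 to day 9 (edgeR's quasi-likelihood test, Benjamini-Hochberg adjusted p = 0.00135; 3.27e-91 to 0.00958 over the alternatives). Cd34 was 21.5-fold lower in untreated cells (-4.42, -4.52 to -4.33) and 208-fold lower with FGF8 (-7.67, -8.08 to -7.34). Across the treatments Cd34 fell by 5.99 ± 0.905 (SE) on the log2 scale (edgeR's quasi-likelihood test, Benjamini-Hochberg adjusted p = 0.00662; 3.07e-19 to 0.04 over the alternatives). At day 3 Cd34 was already 23.8-fold lower untreated and 83.8-fold lower with FGF8, and in FGF8-treated cells it was a further 2.48-fold lower at day 9 than at day 3.

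The PDGF receptors declined less. From day 0 to day 9 Pdgfra was 5.23-fold lower in untreated and 2.65-fold lower in FGF8-treated cells, whose day 0 level was already low. The shared log2 change was -1.89 ± 0.342 (SE) (edgeR's quasi-likelihood test, Benjamini-Hochberg adjusted p = 0.0104; 1.2e-07 to 0.181 over the alternatives). Pdgfrb was 2.67-fold and 2.25-fold lower, with a shared change of -1.24 ± 0.204 (SE) (edgeR's quasi-likelihood test, Benjamini-Hochberg adjusted p = 0.00805; 1.69e-06 to 0.219 over the alternatives). Thy1 was 2.15-fold lower untreated and 16.2-fold lower with FGF8, and its shared change was -2.71 ± 0.797 (SE) (edgeR's quasi-likelihood test, Benjamini-Hochberg adjusted p = 0.0388; 8.57e-05 to 0.11 over the alternatives). Pi16 was 3.35-fold and 83.3-fold lower, with a shared change of -4.26 ± 1.35 (SE) (edgeR's quasi-likelihood test, Benjamini-Hochberg adjusted p = 0.048; 6.81e-05 to 0.0865 over the alternatives). Both Thy1 and Pi16 had the higher day 0 level in the FGF8 library.

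Ly6a, Clec3b and Cd24a did not pass in either comparison with day 0. Ly6a was 2.32-fold lower at day 9 than at day 0 in untreated cells, while with FGF8 its log2 difference was 0.00 (-0.10 to 0.11). Its shared change of -0.66 ± 0.48 (SE) was not called (edgeR's quasi-likelihood test, Benjamini-Hochberg adjusted p = 0.288; 0.203 to 0.599 over the alternatives). Clec3b was 1.46-fold higher at day 9 than at day 0 in untreated cells, and in FGF8-treated cells the ratio was 95.3-fold (16.8 to 3787) against the 1 count of day 0. The shared change of Clec3b, 1.40 ± 1.16 (SE), was not called (edgeR's quasi-likelihood test, Benjamini-Hochberg adjusted p = 0.346; 0.193 to 0.825 over the alternatives). Cd24a had a shared change of -2.45 ± 0.843 (SE) (edgeR's quasi-likelihood test, Benjamini-Hochberg adjusted p = 0.0596; 0.0311 to 0.233 over the alternatives). Dpp4 was at least 41.9-fold lower in untreated cells at day 3 than at day 0 and 32.2-fold lower (15.1 to 82) at day 9. The low-count filter left it out of this test. edgeR's quasi-likelihood test without that filter and DESeq2's Wald test did include Dpp4. Their Benjamini-Hochberg adjusted p lay between 9.19e-05 and 0.00517 for day 3, and between 0.000714 and 0.0066 for day 9. The day 0 libraries held 109 counts untreated and 4 with FGF8.

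**Figure D3:**
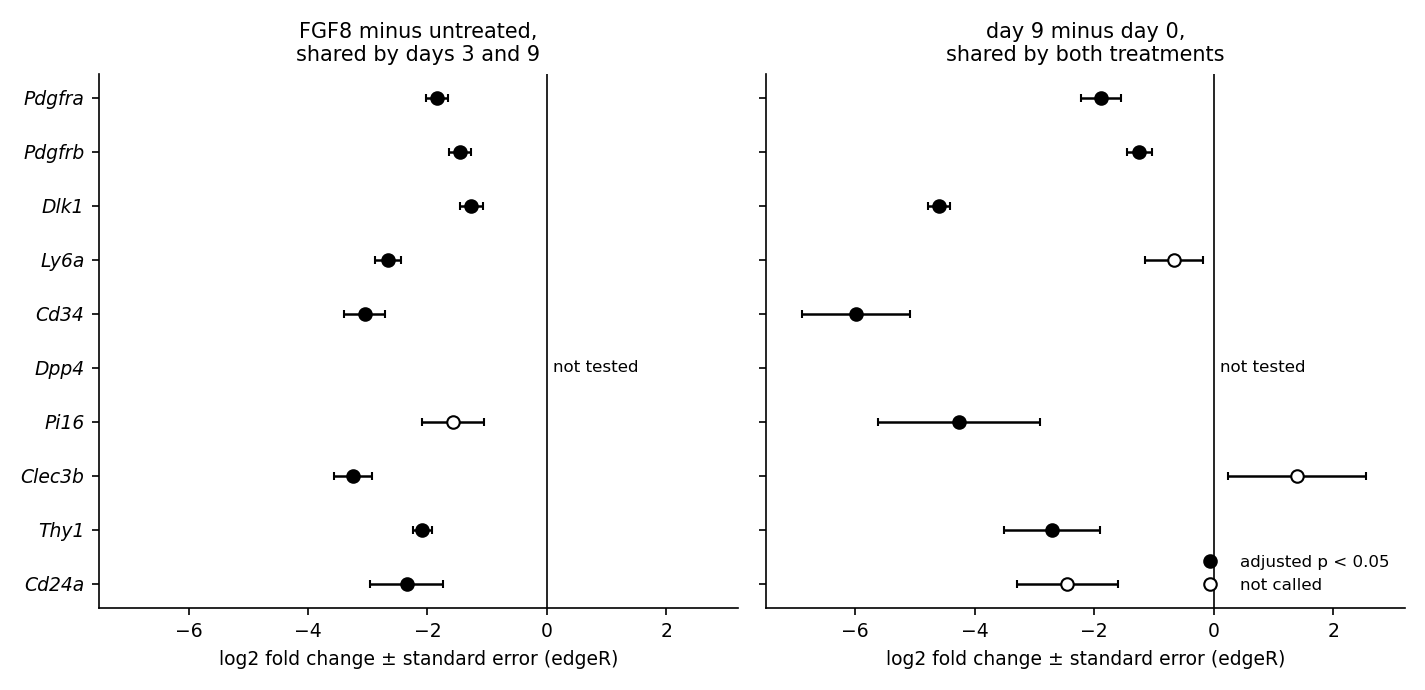
Log2 fold change ± standard error from edgeR (horizontal) for each marker (vertical), left for FGF8 against untreated over days 3 and 9 and right for day 9 against day 0 over both treatments; filled points had an adjusted p under 0.05 and open points did not. On the left 8 filled points lie between -3.25 (Clec3b) and -1.26 (Dlk1), and on the right 6 filled points lie between -5.99 (Cd34) and -1.24 (Pdgfrb).

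Genes whose 6 values ran most nearly parallel to each marker were found by the Euclidean distance between their log2 values, each centred on its own mean, over the 6 libraries, for genes averaging 100 or more normalized counts. The nearest to Pdgfra were Oasl2 (distance 0.60) and Abca9 (0.61). Pdgfrb had the closest neighbour of all, the ganglioside synthase St3gal5 at 0.22. For Dlk1 it was the homeobox gene Meox2 (0.54), which itself belongs to the genes of adipogenesis regulatory cells described next, for Ly6a the R-spondin gene Rspo2 (0.71), and for Thy1 the lysyl oxidase relative Loxl4 (0.44). Cd34 was nearest to Il1rl1 (1.34), the receptor of IL-33, Pi16 to the matrix gene Tnc (1.15), Cd24a to Dnm3os (0.88) and Dpp4 to Col14a1 (1.61). Clec3b had the loosest match, Gdpd2 at 1.77. The libraries share treatment and day, so these distances describe likeness of pattern and were not tested.

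Other genes of the same cell states moved with the markers to different extents. Of 16 genes typical of Dpp4-type interstitial progenitors, other than the 10 markers, 12 could be tested over days 3 and 9, and 10 of these fell with FGF8 and 0 rose (11.6% and 3.96% of all genes), with a median log2 change of -2.21 against 0.051 over all genes tested. Mfap5, a microfibril protein, held 302.9 and 314.5 normalized counts untreated and 16.8 and 35.8 with FGF8 at days 3 and 9, and Cd248 (endosialin) held 9447 and 5320 against 3200 and 983. Ly6c1, a relative of Ly6a, held 1213 and 2015 against 114 and 61.8. Fndc1 was 1244 normalized counts untreated and 16.6 with FGF8 at day 0, and Opcml 223 and 3.8. The cytokine gene Il33 was higher with FGF8 at day 0 and lower afterwards, with 88.1 normalized counts untreated and 6194 with FGF8 at day 0, then 389.5 and 616.8 against 47.7 and 26.8 at days 3 and 9.

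As a list, genes of committed, Icam1-type preadipocytes showed less of this. Of 14 tested over days 3 and 9, 4 fell (Icam1, Vcam1, Ggt5 and Sparcl1) and 0 rose, where 11.6% and 3.96% of all genes did. The median log2 change of the list was -0.07, and those of the 4 that fell were -2.02, -1.68, -1.65 and -0.97. The same list increased over time: 10 of the 14 rose from day 0 to day 9 and 1 fell, where 29.2% of all genes rose and 24.8% fell. The 8 adipocyte markers also rose, 8 of 8 with a median log2 change of 12.5. The 2 lists are not separate, since Fabp4 belongs to both, and the part of adipocyte genes in the rise of the Icam1-type list was not tested. Aoc3, the vascular adhesion amine oxidase, held 2155 normalized counts untreated and 20.5 with FGF8 at day 0, but 8105 and 8117 on day 3, and 9481 and 9147 on day 9. Adam12, a disintegrin metalloprotease, had 2676 and 457 on day 0, and 12843 and 12643 on day 3. The levels of Aoc3 and Adam12 at day 0 were thus further apart than at day 3, whereas Cd34 and Thy1 were closer at day 0. The difference between the Dpp4-type and Icam1-type lists was not tested, and both lists were drawn up with results of these data known.

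Of 7 genes of adipogenesis regulatory cells, 4 of 7 tested fell with FGF8 over days 3 and 9, against 11.6% of all genes. Mgp, matrix Gla protein, held 3728 and 3582 normalized counts untreated and with FGF8 at day 0, then 1604 and 144, and 273 and 39. Of 12 general mesenchymal surface genes, 6 fell and 1 rose. Pdpn (podoplanin) had 1423 and 3942 normalized counts on day 0, then 942 and 184, and 404 and 65, and Anpep (CD13) was below the untreated level at each day, with 3217 and 319 on day 0, and 417 and 102 on day 9. The one that rose was Nt5e (CD73), with 116 and 338 on day 3, and 133 and 324 on day 9. Alcam (CD166) held 846 and 8558 at day 0. Itgb1, an integrin subunit used as a pan-stromal antigen, held 41644 and 49144 on day 0, 9505 and 6791 on day 9, and was not called over days 3 and 9 (edgeR's quasi-likelihood test, Benjamini-Hochberg adjusted p = 0.0675).

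**Figure D4:**
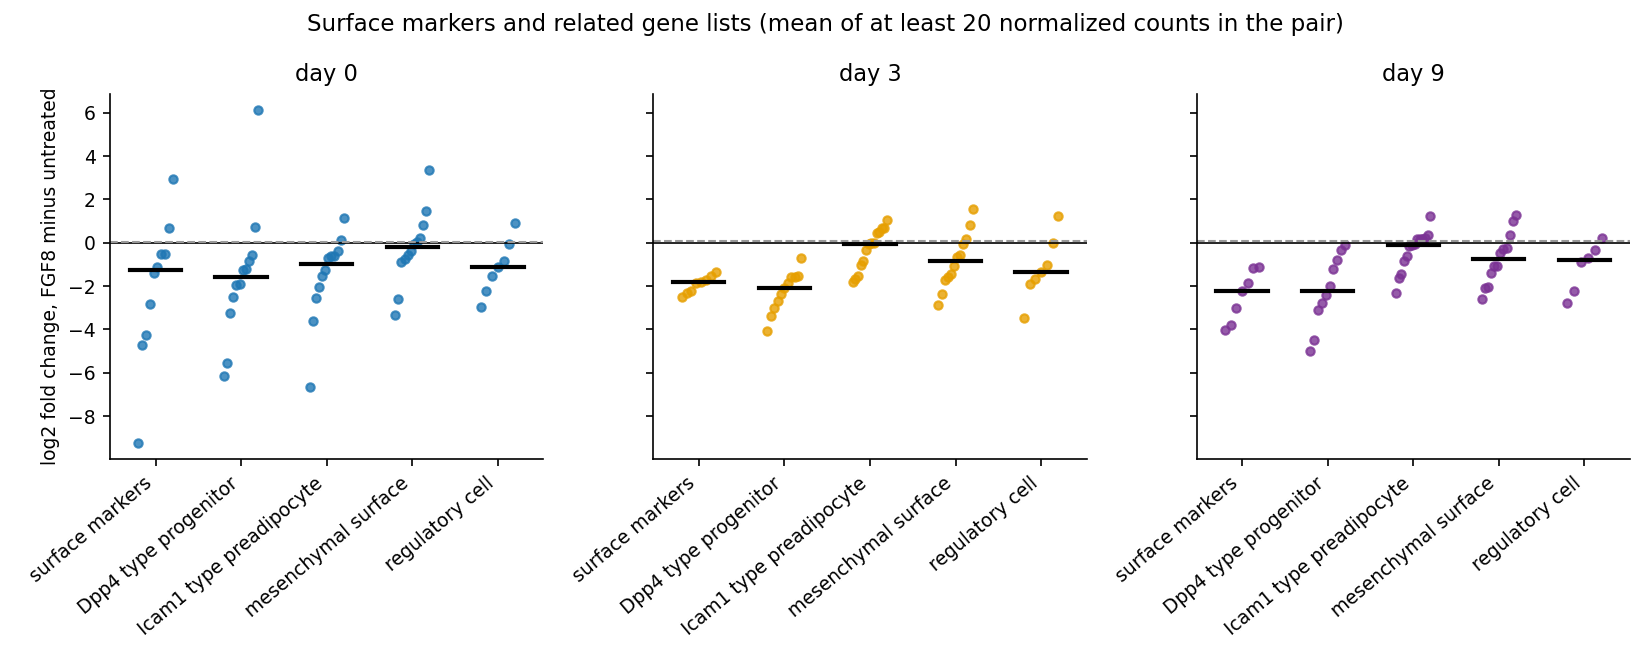
Log2 fold change of FGF8 against untreated cells (vertical) at day 0, 3 and 9 for the markers and 4 related gene lists (horizontal), 1 point per gene that averaged 20 or more normalized counts over both libraries; black bars are medians and the dashed line is the median of all genes. At day 9 the bars lie at -2.24 for the markers and -2.23 for the Dpp4-type list, and at -0.08 for the Icam1-type list.

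Ligands, relatives and partners of the markers were counted in the same test over days 3 and 9, in which 11.6% of all genes fell. These lists are short, and their counts are given as a description. Of the PDGF ligands and the receptor-like gene, 2 of 4 tested fell, among them Pdgfrl, with 267 and 213 normalized counts untreated and 65.3 and 30.9 with FGF8, whereas Pdgfa held 122 and 185 against 152 and 274 and was not called. Of 10 Notch receptors, relatives and imprinted neighbours of Dlk1 and genes of its pathway, 6 fell, namely Notch1, Notch2, Notch3, Sox9, Meg3 and Dio3. Not called were Adam17, Notch4, the closest relative of Dlk1, Dlk2, and the Dlk1 neighbour Rtl1. Few counts limit the last 2: Dlk2 had 7 and 5 counts untreated against 12 and 7 with FGF8, and Rtl1 had 10 and 25 against 9 and 2. Meg3, the noncoding RNA made from the other parental copy of the Dlk1 domain, held 1345 and 408 normalized counts against 413 and 109, and Dio3 of the same domain 44.5 and 446 against 19.7 and 82.1. Among the DPP4 family and its partners 1 of 6 tested fell, a share near that of all genes. This was Dpp7, with 1815 and 759 against 440 and 454. Fap, the closest relative of Dpp4, held 715 normalized counts untreated and 47.4 with FGF8 at day 0, and its later values of 260 and 414 against 188 and 99.2 did not pass (edgeR's quasi-likelihood test, Benjamini-Hochberg adjusted p = 0.0515).

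All 3 testable relatives of Pi16 fell (Pi15, Crispld2 and Glipr2), and Pi15 was also lower at day 0, where Pi16 was higher, with 2475 normalized counts untreated and 156 with FGF8. Of the tetranectin relatives and the plasminogen system, 2 of 4 fell, the plasminogen activators Plat (1740 and 1174 against 382 and 144 at days 3 and 9) and Plau (400 and 465 against 107 and 106). Of the Ly6 family 3 of 4 fell. Ly6e, the most abundant of these, held 45758 normalized counts untreated and 7957 with FGF8 at day 0, and 23459 and 7057 at day 9. Of the CD34 family 0 of 2 were called in edgeR's test, and Podxl2 held 258 and 93.7 against 107 and 56.1 (Benjamini-Hochberg adjusted p = 0.0517). Col3a1, Dcn and the other fibroblast markers, 6 of 6 of that list with Pdgfra among them, also fell over days 3 and 9. Their summed level was 629251 and 660015 normalized counts untreated and 202648 and 184524 with FGF8.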

How the data were processed

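RNA was sequenced from 6 libraries of brown preadipocytes and adipocytes, 1 for each of 2 treatments and 3 days, grouped by their titles. The authors trimmed the reads with Trim Galore, aligned them with HISAT2 to mm39 (GRCm39), counted them per gene with featureCounts after a stranded mRNA kit and deposited the counts without normalization. Versions, annotation, strand setting and the treatment of multi-mapped reads are not given in the sources used here. No row lacked a gene name. Of 26264 symbols, 23897 (91.0%) were in GENCODE M39, which gave coordinates and exon lengths. Totals of 16403254 to 38551551 counts make intervals narrow for abundant genes and wide for Dpp4, Pi16 and Cd24a.

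Counts were divided by DESeq2 1.42.0 median-of-ratios size factors over the 6 libraries. Fold changes are differences of log2(normalized count + 1) between libraries. Its 95% Clopper-Pearson interval and the floor of 3 counts per library cover counting error only. Members were counted at 2-fold among genes averaging 20 or more normalized counts over both libraries. Tests used edgeR 4.0.16 (quasi-likelihood, TMM, filterByExpr, Benjamini-Hochberg over all genes tested, threshold 0.05) under R 4.3.3, with standard errors derived from the F statistic, after trial on simulated data. P-values measure only the spread left between these libraries after the blocks, which may be technical. It also holds any difference in the FGF8 effect between days. edgeR's quasi-likelihood fit drew this spread toward a trend over all genes, which matters with 1 or 2 residual degrees of freedom. Other steps used Python 3.11.15 and scipy 1.17.1.

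The members and the gene lists were chosen with earlier results of these data known. Named genes are the 10 members, the gene or genes nearest to each in pattern and up to 3 genes per list. Icam1, Vcam1, Sparcl1, Fabp4, Mfap5, Cd248, Pdpn, Nt5e, Itgb1, Notch1, Notch2, Notch3, Dlk2, Rtl1, Tek and Egfl7 were named after their values were seen. So were Cspg4, Mcam, Rgs5, Cidea, Ucp1, Lep, Pecam1, Adam17 and Notch4. Alternatives were other size factors (TMM, total counts, within a pair), pseudocounts of 0.5 and 5, a minimum of 100 or none, 1.5-fold and 4-fold rules, and for edgeR DESeq2's factors, no low-count filter, no block, DESeq2's Wald test and other library sets.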

Additional observations from a re-analysis of the deposited data

Results flagged for a closer look

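A few values stood out because the libraries of 2 groups moved in opposite directions. None of these differences was tested. Those of Pi16 and Thy1, and that of Ly6a from day 0 to day 3, involve the day 0 contrast that was used to choose the genes. The log2 fold change of Pi16 with FGF8 was 2.95 at day 0 and -1.52 at day 9. That of Thy1 was 0.67 at day 0 but -1.88 and -2.24 at days 3 and 9. Ly6a differed between the treatments in its course: from day 0 to day 3 its log2 change was -1.53 in untreated and 0.46 in FGF8-treated cells, and from day 3 to day 9 it was 0.31 in untreated and -0.46 in FGF8-treated cells.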

How the results depend on the processing

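The labels carry no replicate numbers, and the libraries were paired by day or by treatment through the blocks of the tests. Of the fold changes of the members under other size factors and pseudocounts, 137 values kept their direction and moved within their counting interval and 8 moved further. Of their edgeR tests, 149 kept their call and direction, 21 lost and 8 gained a call, and 1 turned: without the treatment block Ly6a was 0.16 higher at day 9 than at day 3. Under a 1.5-fold rule 2 members were higher with FGF8 at day 0, and under a 4-fold rule 3 were lower at day 3 and 4 at day 9. With the longest transcript as length, 3 of 10 members kept the rank of their level averaged over the 6 libraries.

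For FGF8 over days 3 and 9, 0 members and 0 genes in either direction were called without the day block, 241 genes rose with DESeq2's factors and 1292 without the low-count filter. From day 0 to day 3, 3 members and 1671 genes fell without the treatment block, 2 members and 1607 genes fell and 2287 rose with only the 4 libraries of those days, and 1 member (Clec3b) rose by DESeq2's Wald test. From day 0 to day 9, 3 members and 2383 genes fell without the block. From day 3 to day 9, members that fell numbered 1 without the low-count filter, 1 by DESeq2 and 3 with 4 libraries, genes that fell 69, 475 and 1465, and genes that rose 199, 861 and 1578, against 2 that rose without the block. The causes were not tested. Few counts limit Dpp4, Pi16 and Cd24a, and the single library per condition limits every day-specific value.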
